A study of Mus musculus with 6 samples.

Results

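The growth hormone and STAT5 axis was described in livers of mice fed the AMLN diet, a diet rich in fat, fructose and cholesterol that produces steatohepatitis. It was taken as 10 genes grouped by name and role, and they were chosen with earlier results of these data known. They were the receptor Ghr, the kinase Jak2, the transcription factors Stat5a and Stat5b, and the feedback genes Socs2 and Cish. The others were the sex-biased factors Bcl6 and Cux2, and the secreted outputs Igf1 and Igfals. All 10 were found among the 49671 genes counted, and all 10 passed the filter on low counts. RNA-seq counts came from whole liver of 6 male mice, 3 labelled WT and 3 labelled KO for SHMT2, the mitochondrial serine hydroxymethyltransferase. By the study's methods the WT mice were SHMT2 fl/fl without Cre and the KO mice were SHMT2 HKO, in which Albumin-Cre deletes the floxed allele in hepatocytes, so that other liver cells keep the gene. Both groups were weaned at 3 weeks and given the AMLN diet from 4 weeks of age for 18 weeks, that is, to 22 weeks of age. A chow-fed group was not analysed here, so each difference below is one of genotype on this diet.

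Growth hormone from the pituitary binds its receptor GHR on hepatocytes and activates the attached kinase JAK2, which phosphorylates STAT5A and STAT5B. The phosphorylated STAT5 proteins enter the nucleus and raise transcription of Igf1, of Igfals, and of the inhibitors Socs2 and Cish, which damp the signal. Growth hormone comes in pulses in male rodents and more steadily in females, and much of the sex-biased transcription of the liver follows from that pattern, with BCL6 as a male-biased and CUX2 as a female-biased transcription factor.

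The targeted gene followed the labels. Shmt2 stood at 94.6, 109 and 93.9 CPM (counts scaled to library sizes adjusted by the trimmed mean of M values) in WT and at 24.9, 28.3 and 19.3 CPM in KO, a log2 fold change of -2.04 (edgeR quasi-likelihood test, Benjamini-Hochberg adjusted p = 0.000639). Gene counts per library ranged from 23090837 to 34089722, and the floor of 3 counts was 0.0734 to 0.152 CPM. One library stood apart: KO 1 held Xist at 10.1 CPM against 0.391 to 1.35 CPM in the other 5 mice, although summed Y-linked genes were at 88.8 to 134 CPM in all 6. Calls that depend on KO 1 are therefore also given without it. The labels name no batch, and they do not say how the 6 samples were collected, so p-values measure only the spread between these mice.

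Among the 10 axis genes, the receptor, one feedback gene and both secreted outputs were called higher in KO livers, and no gene was called lower. Igf1 kept its call in only 4 of 15 alternative settings, and scaling by ERCC spike-in RNAs called 0 of the 10. Without KO 1, Bcl6 was called lower (log2 fold change -0.67, edgeR adjusted p = 0.0216). Of the 10, 4 passed an adjusted p of 0.05 as higher (Ghr, Cish, Igf1 and Igfals), 0 as lower and 6 did not pass (edgeR's quasi-likelihood test, Benjamini-Hochberg over the 16089 genes tested). In the background of all genes tested, 12.5% were called higher and 16.5% lower. The 10 genes were chosen with earlier results of these data known, so the shares beside them are a description only. The count of 0 lower was also 0 at an unadjusted p under 0.05, in DESeq2 and in limma-voom. All 3 KO mice lay above all 3 WT mice in 5 of the 10, namely those 4 and Stat5b, against 21.9% of all genes, and lay below them in 0 of the 10, against 25.0% of all genes. The median log2 fold change was 0.26 for the axis genes and 0.03 for all genes tested.

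**Figure D1:**
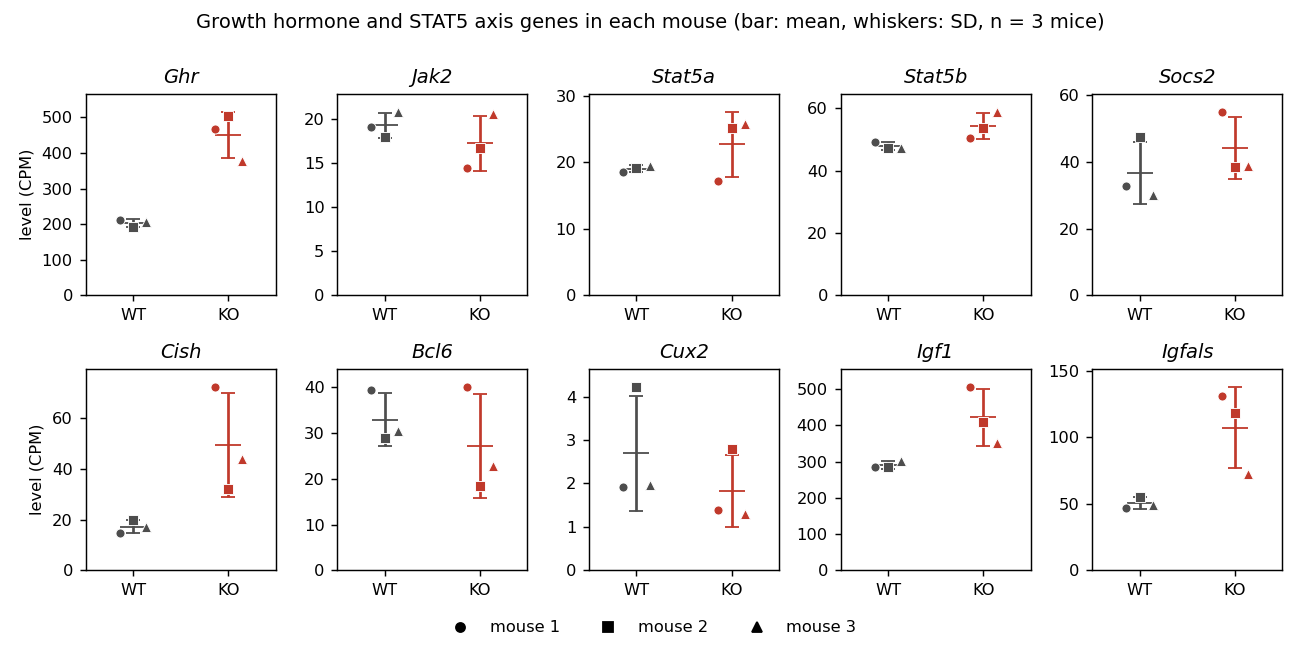
Level of each axis gene in CPM (y axis, from 0, with its own scale in each panel) in 3 WT mice (grey) and 3 KO mice (red). Symbols mark the mouse number, horizontal bars the mean and whiskers the SD. The KO points of Ghr, Cish, Igf1, Igfals and Stat5b lie above all WT points, and those of the other 5 genes overlap with WT.

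Ghr encodes the growth hormone receptor and lies on chromosome 15 (GRCm38, 3317760 to 3583492, minus strand, ENSMUSG00000055737). Its level was 212, 191 and 205 CPM in WT and 467, 503 and 378 CPM in KO. The lowest KO mouse stood well above the highest WT mouse. The means were 203 ± 10.5 and 450 ± 64.6 CPM (SD, n = 3), and the log2 fold change was 1.15 with a standard error of 0.15 and a 95% interval of 0.79 to 1.50 (edgeR adjusted p = 0.00211). Leaving out any 1 mouse kept the fold change between 1.06 and 1.24, with an edgeR adjusted p of at most 0.0168.

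Jak2, which encodes the kinase bound to that receptor (chromosome 19, 29251828 to 29313080, plus strand), gave no call. It stood at 19.0, 18.0 and 20.7 CPM in WT and at 14.4, 16.7 and 20.5 CPM in KO. The groups overlapped, since KO 3 was close to the highest WT mouse while KO 1 was the lowest of the 6. The log2 fold change was -0.16 (95% interval -0.52 to 0.20, edgeR adjusted p = 0.477), so a rise of the size seen for Ghr lay outside its interval. Within a mouse, the ratio of Ghr to Jak2 counts was 11.1, 10.6 and 9.91 in WT and 32.4, 30.2 and 18.4 in KO, without overlap. Such ratios do not depend on the scaling of libraries. They were chosen after the values were seen and carry no test.

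Stat5a and Stat5b encode near-identical proteins and lie side by side on chromosome 11 (100859351 to 100885169, plus strand, and 100780731 to 100850724, minus strand), so reads from their shared stretches may be missing from counts of unique hits. Stat5b, the main form in liver, was at 49.3, 47.2 and 47.2 CPM in WT and 50.5, 53.7 and 58.7 CPM in KO. Its KO mice lay above its WT mice by a small margin, and its log2 fold change of 0.18 (95% interval -0.07 to 0.43, edgeR adjusted p = 0.245) did not pass. Stat5a was at 18.5, 19.2 and 19.4 CPM in WT and at 17.1, 25.2 and 25.7 CPM in KO. Here KO 1 was the lowest of the 6 mice and the other KO mice the highest, and the log2 fold change was 0.25 (95% interval -0.13 to 0.64, edgeR adjusted p = 0.299). Without KO 1 it was 0.42 (edgeR adjusted p = 0.0343). Stat5a also shares 72 exonic bases with Stat3 on the opposite strand, and whether counting used strand is not given in the sources used here.

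The balance of the STAT5 genes was close in both genotypes. Stat5b took 72.7%, 71.1% and 70.8% of the summed Stat5a and Stat5b counts in WT and 74.7%, 68.1% and 69.5% in KO. The mean shares were 71.6% ± 0.992 and 70.8% ± 3.48 (SD, n = 3; exact permutation test, two-sided, p = 0.8, where 3 against 3 mice cannot go below 0.1).

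Cish and Socs2 encode SH2-domain proteins of the SOCS family that STAT5 induces and that in turn damp receptor signalling. Cish (chromosome 9, 107296026 to 107302784, plus strand) was at 14.7, 19.8 and 17.0 CPM in WT and at 72.0, 32.1 and 43.7 CPM in KO. All KO mice were above all WT mice, and KO 1 was the highest. The means were 17.2 ± 2.59 and 49.3 ± 20.5 CPM (SD, n = 3), with a log2 fold change of 1.52, the largest of the 10 genes (standard error 0.28, 95% interval 0.87 to 2.17, edgeR adjusted p = 0.00677). Without KO 1 the log2 fold change was 1.15 (edgeR adjusted p = 0.0025). Cish exons overlap a pseudogene (Gm17040) by 261 bases and an antisense gene (Gm17041) by 479 bases, both on the other strand. Reads from the shared bases may be left out of its count or miscounted, depending on settings that are not given.

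Socs2 (chromosome 10, 95385362 to 95417180, minus strand), in contrast to Cish, did not pass. It was at 32.8, 47.4 and 30.0 CPM in WT and at 54.9, 38.5 and 39.0 CPM in KO. The groups overlapped, with WT 2 above KO 2 and KO 3. The log2 fold change was 0.27 (95% interval -0.21 to 0.75, edgeR adjusted p = 0.378). The within-mouse ratio of Cish to Socs2 counts was 0.447, 0.418 and 0.568 in WT and 1.31, 0.832 and 1.12 in KO, again without overlap.

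STAT5 dimers bind palindromes of the form TTCNNNGAA, which reads the same on both strands. The motif was searched in windows from 250 bases before to 50 bases after the annotated starts (RefSeq, GRCm38.p6). Of 32851 windows of all genes, 8.30% held a match, 0.457% held 2 or more and 0.0335% held 3 or more. The table had 16 windows for 9 of the 10 genes, Socs2 apart, and 5 of these windows, in Cish, Bcl6 and Igfals, held a match. They are printed because they show where axis genes carry the letters STAT5 prefers, with the matches in capitals, 5′ to 3′ on the gene's strand:
Cish, plus strand, chr9:107296639-107296678: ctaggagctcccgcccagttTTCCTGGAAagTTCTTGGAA
Bcl6, minus strand, chr16:23981343-23981471: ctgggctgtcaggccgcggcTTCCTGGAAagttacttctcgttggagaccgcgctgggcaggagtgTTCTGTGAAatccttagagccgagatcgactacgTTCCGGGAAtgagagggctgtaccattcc
Bcl6 at another start, minus strand, chr16:23988942-23988990: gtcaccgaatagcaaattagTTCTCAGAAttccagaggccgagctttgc
Igfals, plus strand, chr17:24877594-24877636: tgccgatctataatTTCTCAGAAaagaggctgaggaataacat
Igfals at another start, plus strand, chr17:24878153-24878201: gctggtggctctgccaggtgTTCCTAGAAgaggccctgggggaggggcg
The Cish window held 2 matches, which began at bases 1 and 12 when the start base is counted as 1. One Bcl6 window held 3, beginning 168, 122 and 88 bases before the start, and the other held 1, at 118 bases before. The Igfals matches began 236 and 58 bases before 2 different starts. The windows of Ghr, Jak2, Stat5a, Stat5b, Cux2 and Igf1 did not hold these letters. Genes with and without a match were found both among the called and among the uncalled genes. A match is a run of letters, and binding was not measured here.

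Bcl6 and Cux2, the transcription factors tied to male and female patterns of growth hormone, overlapped between genotypes. Bcl6 (chromosome 16, 23965052 to 23988852, minus strand) was at 39.5, 29.0 and 30.4 CPM in WT and at 40.0, 18.5 and 22.9 CPM in KO. KO 1 was the highest of the 6 mice while the other KO mice were the lowest, and the log2 fold change was -0.28 (95% interval -0.92 to 0.35, edgeR adjusted p = 0.484). Without KO 1, Bcl6 was lower by a log2 fold change of -0.67 (edgeR adjusted p = 0.0216), so its call rests on whether that mouse is included. Cux2 (chromosome 5, 121856366 to 122050102, minus strand), a gene of female liver, was low in these males, at 1.91, 4.21 and 1.96 CPM in WT and 1.40, 2.79 and 1.30 CPM in KO. Mouse 2 was the highest of each group, and the log2 fold change was -0.56 with a wide 95% interval of -1.55 to 0.44 (edgeR adjusted p = 0.374). It ranged from -0.09 without WT 2 to -0.98 without KO 2, and was not called in either case.

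The outputs of the axis are secreted. Igf1 (chromosome 10, 87858265 to 87937042, plus strand) encodes the growth factor that the liver releases into blood, and Igfals (chromosome 17, 24865997 to 24882010, plus strand) encodes the acid-labile subunit that holds IGF1 and a binding protein in a long-lived complex. Igfals was at 46.8, 55.5 and 49.3 CPM in WT and at 131, 118 and 72.7 CPM in KO. All KO mice were above all WT mice, with KO 3 the nearest to them. The means were 50.5 ± 4.48 and 107 ± 30.5 CPM (SD, n = 3), and the log2 fold change was 1.08 (standard error 0.21, 95% interval 0.60 to 1.57, edgeR adjusted p = 0.00776). It stayed past the threshold without any 1 mouse, with an edgeR adjusted p of at most 0.0393.

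Igf1 was at 284, 286 and 303 CPM in WT and at 504, 409 and 351 CPM in KO. The groups did not overlap, and the means were 291 ± 10.3 and 421 ± 77.5 CPM (SD, n = 3). Its log2 fold change of 0.53 (SE 0.17, 95% interval 0.16 to 0.91) passed narrowly (edgeR adjusted p = 0.0422). The call was lost in 11 of 15 alternatives, among them leaving out any WT mouse (edgeR adjusted p of 0.116 to 0.135), KO 1 (0.0842) or KO 2 (0.0831). Within a mouse, the ratio of Igfals to Igf1 counts was 0.165, 0.194 and 0.163 in WT and 0.259, 0.288 and 0.207 in KO, without overlap.

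**Figure D2:**
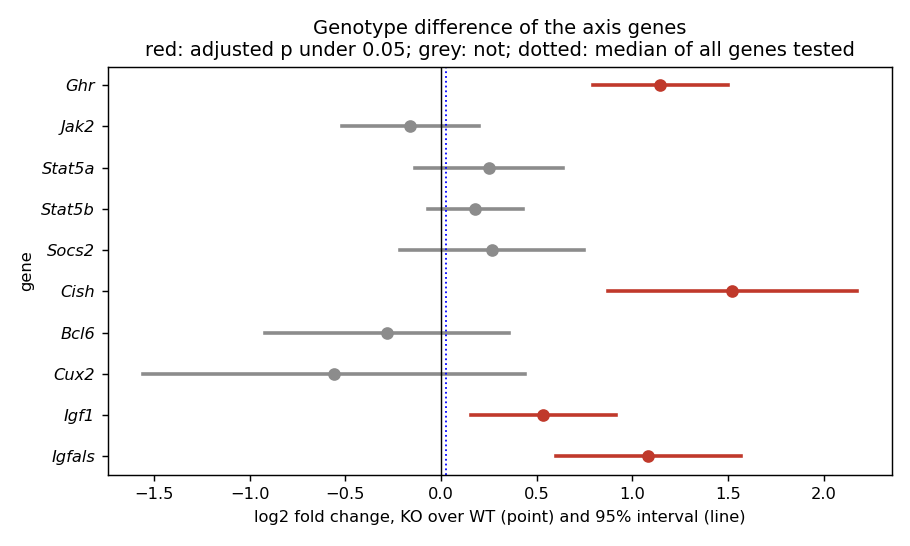
Log2 fold change of KO over WT (x axis) for each axis gene (y axis), as points with their 95% intervals as lines. Red marks the 4 genes with an edgeR adjusted p under 0.05, grey the other 6, and the dotted line the median of all genes tested at 0.03.

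Scaling by the ERCC spike-in RNAs, in place of the gene counts themselves, gave a call for 0 of the 10 genes. Under it the median of all genes moved by -0.72, and the log2 fold changes were 0.36 for Ghr, 0.75 for Cish, 0.23 for Igfals and -0.26 for Igf1. Relative to the median gene these were 1.05, 1.45, 0.93 and 0.43. The spike-in share was 1.42% to 1.84% of counts in WT and 1.35% to 2.75% in KO, so the spike-ins spread more between KO mice than between WT mice. The rises above are thus changes relative to the other genes of the same liver, and in whole liver fewer cells of a type and less RNA per cell cannot be told apart.

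The order of the axis genes by level was compared as CPM per kilobase of exon. In WT it ran from Igf1 (29.4) over Ghr (22.4), Igfals (16.0), Stat5b (8.65), Bcl6 (4.92), Socs2 (3.85), Jak2 (3.83), Cish (2.68) and Stat5a (2.67) to Cux2 (0.267). The ranges over mice of neighbours overlapped for Bcl6 with Socs2, Socs2 with Jak2 and Cish with Stat5a, and for no other neighbours. In KO, Ghr (49.7) came first with a range that overlapped that of Igf1 (42.6), and Cish (7.67) came directly after Stat5b (9.80). The KO range of Cish, 4.99 to 11.2, overlapped those of both Stat5b and Socs2 (4.63). Of the KO neighbours, only Igfals (33.8) with Stat5b and Stat5a (3.18) with Cux2 (0.181) had ranges that did not overlap.

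Shifts in cell markers ran beside these differences. Of all genes tested, 12.5% were called higher and 16.5% lower. In lists of 5 to 8 markers, a count of 2 called is not far from those shares. Summed markers of hepatocytes, the cells that express most of the axis, were at 58275 to 72117 CPM in WT and 68956 to 109850 CPM in KO, with 2 of 7 matched markers higher. The 5 cholangiocyte markers, all 5 called lower, summed to 951 to 1181 CPM in WT and 128 to 245 CPM in KO. The 8 stellate cell markers, of which 5 were called lower, summed to 1446 to 1500 CPM in WT and 329 to 861 CPM in KO. Of 8 macrophage markers 4 were lower and 2 higher (557 to 769 CPM in WT, 429 to 522 CPM in KO), of 6 lymphocyte markers 2 were lower (13.3 to 17.2 and 5.04 to 6.92 CPM), and of 6 endothelial markers 2 were higher (160 to 185 and 227 to 266 CPM). No marker of these lists was at 0 in all mice. The part of these shifts in the differences of the axis genes was not tested.

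The wider receptor and signalling list of 33 genes, cytokine receptors, JAKs, STATs, SOCS proteins and their regulators, had 2 genes higher and 5 lower, with 26 not called, and its median log2 difference was -0.02. Read against the 12.5% of all genes called higher and the 16.5% called lower, its share of lower genes was near the background and its share of higher genes below it. This list and those below were chosen with earlier results of these data known, so such shares are descriptions. The higher genes were Prlr, the prolactin receptor and a close relative of Ghr, and Lifr, the receptor of leukemia inhibitory factor. Prlr was at 12.3, 23.2 and 12.1 CPM in WT and 41.8, 74.5 and 27.5 CPM in KO, without overlap, which is a log2 fold change of 1.60 (SE 0.41, edgeR adjusted p = 0.0253). Lifr gave 0.90 on the same scale (SE 0.22, edgeR adjusted p = 0.0186). The lower genes were the leptin receptor Lepr (-1.61, or -2.32 without KO 3, edgeR adjusted p = 0.0273 and 0.00132), the adapter Grb10 (-1.10, edgeR adjusted p = 0.0209), Socs1, Socs5 and Stat4. Lepr is also expressed in stellate cells and Stat4 in lymphocytes, where 5 of 8 and 2 of 6 markers, respectively, were lower. The part of these cells in both differences was not tested. Socs3, the main inhibitor of interleukin signalling in liver, was at 14.5 to 26.2 CPM in WT and 14.5 to 28.2 CPM in KO (log2 fold change 0.00, edgeR adjusted p = 0.993), and Egfr, a growth hormone dependent receptor of hepatocytes, gave 0.30 (edgeR adjusted p = 0.421).

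In the IGF system, which carries and reads the IGF1 that the liver makes, 1 of 17 tested genes was higher (12.5% of all genes), 7 were lower (16.5% of all genes) and 9 were not called, with a median log2 fold change of -0.58. Insr, the insulin receptor, was the higher one (0.46, edgeR adjusted p = 0.0171, but -0.27 under ERCC scaling), and Igf1r, the receptor of IGF1, was lower (-1.38, edgeR adjusted p = 0.00612). Igfbp1, a binding protein that hepatocytes make under fasting and low insulin, was at 247, 468 and 225 CPM in WT and at 30.1, 113 and 117 CPM in KO. These groups were far apart, with a log2 fold change of -1.85 (standard error 0.53, edgeR adjusted p = 0.0391), although the call held in only 9 of 15 alternatives. The ratio of Igfbp1 to Igf1 counts within a mouse was 0.870, 1.64 and 0.743 in WT and 0.0597, 0.276 and 0.335 in KO. Igfbp3, the usual partner of IGF1 and IGFALS in blood, gave 0.08 (edgeR adjusted p = 0.865) and Igfbp2 gave -0.48 (edgeR adjusted p = 0.148). Among the lower genes with a mean of at least 1 log2 CPM, the largest decreases were Stc2 (-2.78, edgeR adjusted p = 0.00288), an inhibitor of the protease that cleaves IGF binding proteins, and Htra1 (-2.25, edgeR adjusted p = 0.000639), a secreted protease. Pappa, that protease itself, was below that level and lower by -2.29 (edgeR adjusted p = 0.00655). Igfbp7 and Stc1 made up the rest of the lower genes. In KO 1, KO 2 and KO 3, Pappa had 11, 3 and 10 counts and Stc1 had 2, 6 and 7. Some of these lie at or near the floor of 3 counts, so the size of both decreases is uncertain. Stc1 was called in 7 and Pappa in 14 of the 14 alternatives that tested them. Several of the lower genes are also made by stellate cells, of whose 8 markers 5 were lower. The part of these cells in the differences was not tested.

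**Figure D3:**
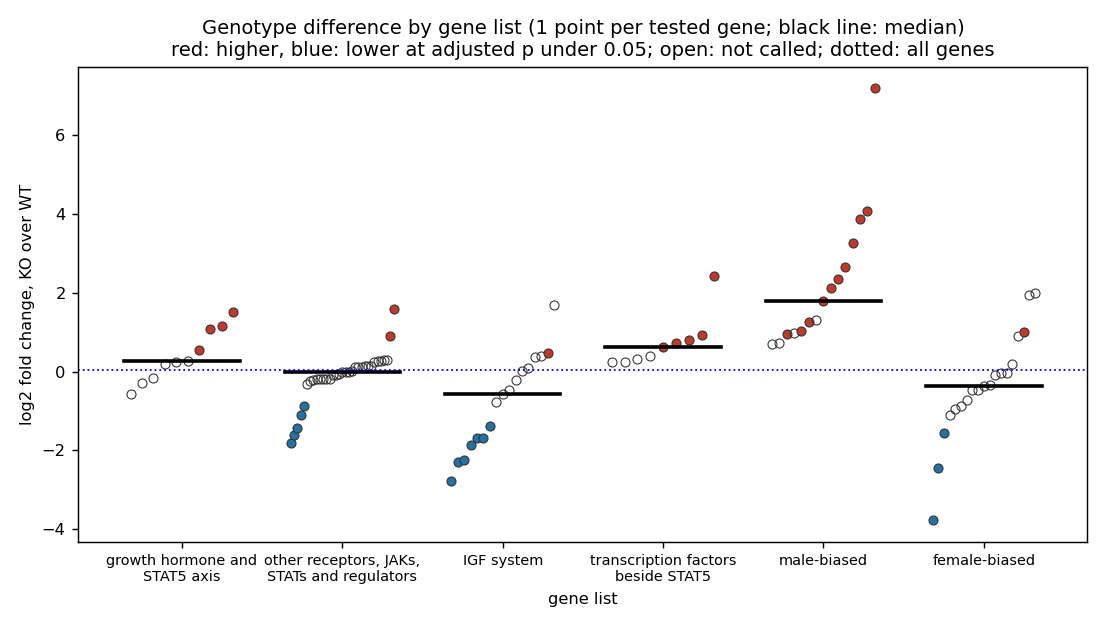
Log2 fold change of KO over WT (y axis) for every tested gene of the axis and of 5 related gene lists (x axis), 1 point per gene, with the list median as a black line. Red points are higher and blue points lower at an edgeR adjusted p under 0.05, open points are not called. The male-biased list has 11 of its 15 points in red and a median of 1.78, against 0.26 for the axis.

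Liver transcription factors that bind beside STAT5 were higher or not called: of 9, 5 were higher (12.5% of all genes), 0 lower (16.5% of all genes) and 4 not called, with a median log2 fold change of 0.63. This list, too, was chosen with earlier results of these data known, so the counts are a description only. Onecut1, also known as HNF6 and itself induced by growth hormone, was at 6.83, 7.79 and 7.15 CPM in WT and 36.8, 24.8 and 54.7 CPM in KO. Each KO mouse was far above each WT mouse, with a log2 fold change of 2.42 (standard error 0.27, edgeR adjusted p = 0.00127) that was called in 15 of 15 alternatives. Foxa1 was higher by 0.94 (edgeR adjusted p = 0.0443) but was called in only 7 of 15 alternatives. Foxa2 and Cebpa were also among the higher genes, of which 1 of the 5 turned sign under ERCC scaling, and Hnf4a gave 0.41 (edgeR adjusted p = 0.101). The count of 0 lower was 0 at an unadjusted p under 0.05, in DESeq2 and in limma-voom as well.

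Most male-biased genes of the list, which depend on the pulses of growth hormone, were higher in KO. Of 15 tested, Mup genes apart, 11 were higher (12.5% of all genes), 0 lower (16.5% of all genes) and 4 not called, with a median log2 fold change of 1.78. The list was chosen with earlier results of these data known, so its counts beside those shares are a description only. Elovl3, a fatty acid elongase, was at 18.8, 9.11 and 12.2 CPM in WT and 152, 168 and 65.6 CPM in KO, a log2 fold change of 3.26 (standard error 0.42, edgeR adjusted p = 0.00226). Cyp7b1, an oxysterol hydroxylase, rose by 2.65 on the log2 scale, and by 1.74 without KO 1 (edgeR adjusted p = 0.0131 and 0.00079). Susd4, a regulator of complement, rose by 4.08 (edgeR adjusted p = 0.00196). Hsd3b5, a steroid reductase of male liver, was at 0.294, 0.527 and 0.391 CPM in WT and at 165, 2.94 and 5.63 CPM in KO. All KO mice were above WT, but KO 1 set the size: the log2 fold change was 7.19 with it and 3.44 without it (edgeR adjusted p = 0.032 and 0.000798). The count of 0 lower was also 0 at an unadjusted p under 0.05, in DESeq2 and in limma-voom, but 1 gene, Serpina1e, was lower without KO 1. Serpina1e was at 3974 CPM in KO 1 against 114 and 125 CPM in the other KO mice. Of the Mup genes, male-biased secreted carriers of pheromones, 17 of 19 tested were higher (12.5% of all genes). Their summed level was 2683 to 4431 CPM in WT and 22503, 6419 and 8712 CPM in KO 1, KO 2 and KO 3. The means of the log2 of this level differed by 1.73. A two-sided exact permutation test on the summed CPM gave p = 0.1, which 3 against 3 mice cannot go below. Without KO 1 the log2 difference was 1.20, and under ERCC scaling it was 0.91 with all 6 mice. The copies are near-identical, so single Mup counts are uncertain and their calls are not separate observations.

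Of 19 female-biased genes tested, 1 was higher, 3 lower and 15 not called, with a median log2 fold change of -0.38. The share of lower genes was near the 16.5% of all genes called lower, and the share of higher genes was below the 12.5% called higher. Cyp2a4, a female-biased steroid hydroxylase, was at 83.7, 74.8 and 60.1 CPM in WT and 1.06, 10.1 and 5.04 CPM in KO, without overlap (log2 fold change -3.77, SE 0.64, edgeR adjusted p = 0.00642). Without KO 2 the log2 fold change was -4.56 (edgeR adjusted p = 0.00802). Prom1 was lower by a log2 fold change of -2.46 (edgeR adjusted p = 0.00136), and cholangiocytes, whose markers were lower, also express it. The part of these cells in its difference was not tested. Fmo2, a monooxygenase, was the other lower gene, and Tox, a DNA-binding factor, was the higher one (log2 fold change 0.996, edgeR adjusted p = 0.0276). Cyp2b9 was at 0.340, 15.8 and 1.50 CPM in the KO mice, and its log2 fold change was 1.99 with KO 2 and -0.66 without it (edgeR adjusted p = 0.246 and 0.517).

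**Figure D4:**
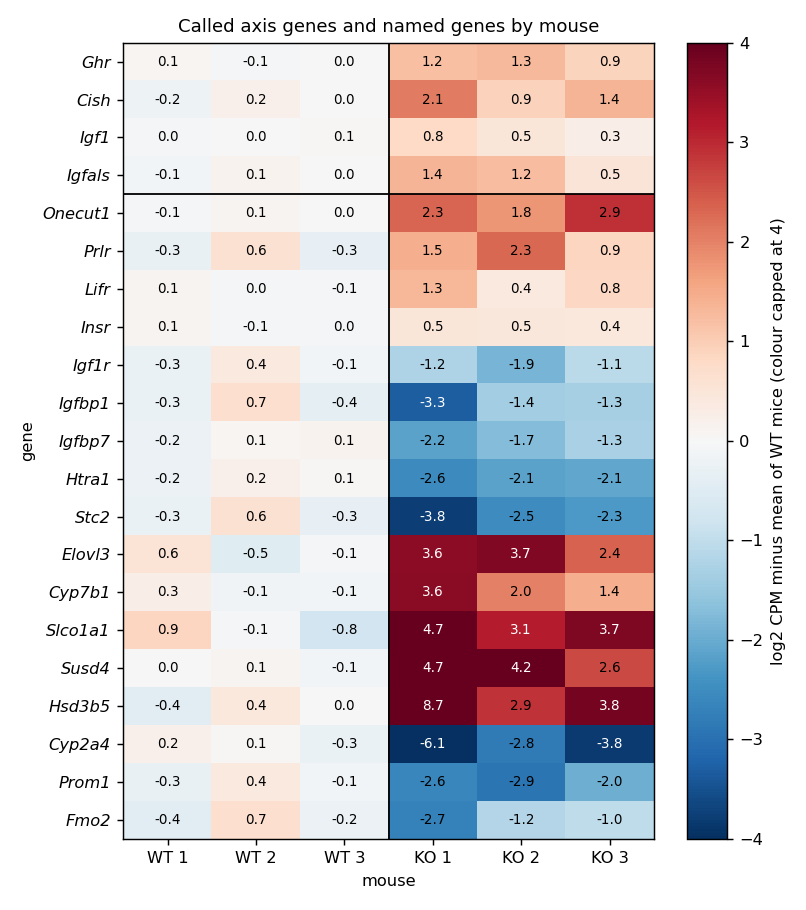
Log2 CPM of the 4 called axis genes (above the line) and of other named genes (below it) in each mouse (x axis), minus the mean of the 3 WT mice, with the value printed in each cell and red for higher, blue for lower. As scaled here, the KO columns are red for the axis genes (Igf1 turns negative under ERCC scaling), Onecut1 and the male-biased genes, with KO 1 the highest of Hsd3b5, and blue for Igf1r, Igfbp1, Stc2, Htra1 and Cyp2a4.

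Genes whose level followed Igf1, Socs2 and Cish most closely over the 6 mice were taken as those with the smallest root mean square difference of centred log2 CPM. For Igf1 they were Hdhd5, Fgfrl1 and Cebpzos, at 0.039, 0.043 and 0.043. For Socs2, Usp27x and 4930431P19Rik were the nearest, at 0.058 and 0.068. For Cish they were Srms, Gm26967 and mt-Te, at 0.14, 0.17 and 0.18. Srms, Gm26967, Usp27x and 4930431P19Rik were low, at 0.294 to 3.82 CPM over the 6 mice. Counting error therefore weighs more on their patterns. This likeness is a description over 6 mice of 2 groups, which share the genotype difference.

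**Figure D5:**
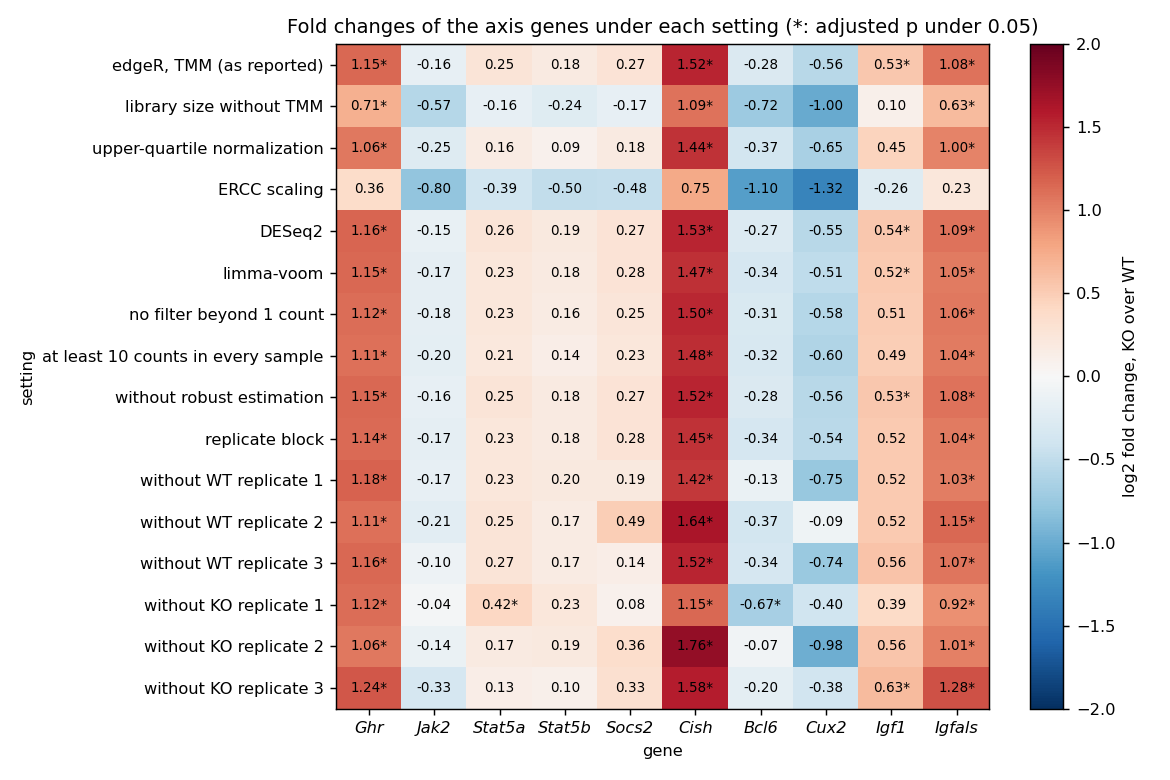
Log2 fold change of each axis gene (x axis) under the reported setting and 15 alternatives (y axis), with the value in each cell and an asterisk for an adjusted p under 0.05. Ghr, Cish and Igfals carry the asterisk in 14 of 15 alternatives, ERCC scaling being the exception, and Igf1 in 4.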

How the data were processed

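Total RNA from liver was sequenced in 6 mice, 3 WT and 3 KO, grouped by the deposited genotype label. The submitters' processing notes name Trimmomatic 0.36, STAR 2.5.2b, featureCounts of Subread 1.5.2 and the build GRCm38. The values deposited by the authors are raw counts of unique hits per gene, without normalization, and the strand setting of the counting is not given in the sources used here. The table held 49763 entries, of which 92 were ERCC spike-in RNAs that entered neither library sizes nor tests. GENCODE M21 lacked 259 of the 49671 gene IDs and supplied symbols, GRCm38 coordinates and the union of exon lengths.

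Genes were filtered with filterByExpr, scaled by the trimmed mean of M values (TMM) and tested with the quasi-likelihood F test, two-sided and robust, of edgeR 4.0.16 in R 4.3.3. Benjamini-Hochberg adjustment was over the 16089 genes tested, and genes were called at an adjusted p of 0.05. Intervals of 95% used the standard error and the residual and prior degrees of freedom of each gene. CPM used TMM-scaled library sizes. Shares and summed levels went into an exact permutation test across the 6 mice, two-sided. On simulated counts with 200 changed genes at a log2 change of 2, among 15771 tested, 170 of 195 tested changed genes were recovered (87.2%), and 11.0% of calls were false. In the data 4663 of 16089 genes were called, and changes of axis genes were smaller, such as 0.53 for Igf1. These rates therefore do not describe the recovery of the axis genes. The false share on simulated counts was above the threshold of 0.05, so calls close to it, such as that of Igf1, are less certain. Replicates differed by more than counting noise, so each counts as 1 sample. Floors and intervals of shares cover counting error only.

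Alternatives were DESeq2 1.42.0, limma-voom (limma 3.58.1), library size without TMM, upper-quartile normalization, ERCC scaling, filters of 1 count in any sample or 10 in every sample, no robust estimation, a block for the replicate number, and each mouse left out in turn. The members and lists were chosen with earlier results of these data known. Named genes were the 10 members, Shmt2, up to 2 called genes per direction and list with a mean of at least 1 log2 CPM, a fixed set of growth hormone and IGF genes, and the 3 genes nearest in pattern to Igf1, Socs2 and Cish, of which some are not reported here. Ratios within a mouse were added after the values were seen. Promoter windows were from RefSeq (GRCm38.p6).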

Additional observations from a re-analysis of the deposited data

Results flagged for a closer look

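Some genes of the related lists were too low to be tested but were above their WT levels in 1 KO mouse. These values carry no test. Pappa2, a protease of IGF binding proteins, was at 21.7 CPM in KO 1 against at most 0.026 CPM in WT. Moxd1, a male-biased gene, was at 38.5 CPM in KO 1 against at most 0.263 CPM in WT. Mup13 was at 1.53 CPM in KO 1 and at 0 in WT, and Mup4 was at 0.255 CPM in KO 1 against at most 0.0752 CPM. In KO 2, the female-biased genes Hao2 and Sult3a1 were at 1.27 and 0.354 CPM against at most 0.418 and 0.226 CPM in WT, and Mup5 was at 0.203 CPM against at most 0.188 CPM. Mup4 in KO 1 and Sult3a1 and Mup5 in KO 2 rested on 6, 7 and 4 counts. These lie near the floor of 3 counts, so their place above WT is uncertain.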

How the results depend on the processing

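Ghr, Cish and Igfals were called higher in 14 of 15 alternatives, all except ERCC scaling, and Igf1 in 4. Jak2, Stat5b, Socs2 and Cux2 were called in none. ERCC scaling turned Igf1 to -0.26 and gave 0 axis genes higher, 107 genes higher and 2759 lower over all, 6 male-biased genes higher, 1 transcription factor higher, 0 female-biased genes higher and 5 lower, and 0 higher genes in both the signalling list and the IGF system. Library size without TMM moved the median gene by -0.42 and gave 539 genes higher and 4923 lower, 2 transcription factors higher, 1 signalling gene higher and 13 lower, 0 IGF system genes higher, and 0 female-biased genes higher and 5 lower. With no filter beyond 1 count, 1 signalling gene and 7 male-biased genes were higher. Upper-quartile normalization gave 5 female-biased genes lower. The cause of these differences was not tested.

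Leaving out 1 mouse gave 3 to 4 axis genes higher and 0 to 1 lower. Without KO 1, Stat5a joined the higher genes, Bcl6 became the lower one and Igf1 lost its call. The ranges were 0 to 3 higher and 2 to 6 lower for the signalling list, 0 to 1 and 5 to 6 for the IGF system, 2 to 5 and 0 to 0 for the transcription factors, 8 to 11 and 0 to 1 for the male-biased list, and 0 to 2 and 2 to 3 for the female-biased list. Among named genes of the lists, Cyp2a4, Elovl3, Htra1, Igf1r, Onecut1, Prom1, Stc2 and Susd4 were called without any 1 mouse. The call was lost without any WT mouse for Foxa1, Hsd3b5 and Lifr (edgeR adjusted p up to 0.132, 0.116 and 0.074), without any WT mouse or KO 2 for Lepr and Tox (0.0928 and 0.109), without any mouse but KO 1 for Fmo2 and Igfbp1 (0.147 and 0.126), without WT 2 or WT 3 for Cyp7b1 and Insr (0.0718 and 0.0871), without WT 1 or WT 2 for Grb10 (0.0767), and without WT 1, WT 3 or KO 2 for Prlr (0.0926). Over all genes the range was 805 to 2521 higher and 1621 to 3076 lower. The difference in Stat5b share ran from -2.74 to 0.571 percentage points, and that of summed Mup from 1.20 to 2.10.

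The replicate numbers did not pair the mice: deviations from the group means of same-numbered WT and KO mice had correlations of -0.0459, 0.0125 and -0.0766, and not every mouse correlated best with its own number. With the replicate number as a block, 3 axis genes were higher (Igf1 had an edgeR adjusted p of 0.096), 1397 genes were higher and 2187 lower over all, and 2 female-biased genes were higher. Counts of Cux2, 33 to 112 per mouse, limit its precision.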
